A study of Mus musculus with 3 samples.

Results

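The comparison of IL-2/21-Trikine under sIL-2 + IL-21 in tumor-infiltrating T cells was examined gene by gene in 2 single-cell libraries, 1 for each treatment. All 13299 kept cells of the IL-2/21-Trikine library and all 9798 kept cells of the sIL-2 + IL-21 library entered, of 30857 kept cells in the 3 libraries of the experiment, and the third library, sIL-2 alone with 7760 cells, is given only as a level beside them. A kept cell held 500 to 120000 UMIs (counted RNA molecules), of which no more than 20% came from mitochondrial genes. Of 33696 genes in the files, 7489 reached 10 CPM (a gene's UMIs per library total, scaled to the same sum in each library) in either library and were compared, 7098 in both, 170 in the IL-2/21-Trikine library only and 221 in the sIL-2 + IL-21 library only. A gene at 10 CPM in 1 library only entered through the library where it was higher.

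The cells were pmel T cells, CD8+ T cells whose transgenic receptor recognizes the melanocyte antigen gp100, from spleens of Thy1.1+ donors. They had been cultured with gp100 peptide and 10 nM cytokine and transferred on day 5 into irradiated (6 Gy) Thy1.2+ C57BL/6J mice of 5 to 6 weeks that carried B16F10 melanoma, followed by 4 intraperitoneal cytokine doses of 2.5 µg. The sort on day 18 took live CD8+ cells positive for Thy1.1 out of the tumors. sIL-2 is an engineered IL-2 with raised affinity for IL-2Rβ, and IL-2/21-Trikine fuses it to an IL-21 that binds IL-21Rα without engaging the common gamma chain, so that IL-21Rα is drawn into the IL-2 receptor. The cells preconditioned with sIL-2 + IL-21 were followed by sIL-2 alone in the mouse, whereas the cells preconditioned with IL-2/21-Trikine were followed by IL-2/21-Trikine, and those of the third library saw sIL-2 in both steps. The effects of preconditioning and of dosing therefore cannot be told apart here. All recipients were lymphodepleted, all transferred cells carried the same receptor, and the number of mice pooled in each library was not given in the sources used here. With 1 library a side there was no replicate and no test. Each ratio below is a log2 ratio of CPM, IL-2/21-Trikine over sIL-2 + IL-21, with an exact 95% interval in brackets that covers counting error only, and a gene is called higher or lower when its log2 ratio passed 0.5 (1.41-fold) in that direction.

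As background, IL-2 signals through IL-2Rβ and the common gamma chain mainly to STAT5, which drives proliferation and effector genes of CD8+ T cells, and IL-21 signals through IL-21Rα and the common gamma chain mainly to STAT3. Effector CD8+ T cells kill by releasing perforin and granzymes. Less differentiated cells keep the transcription factor TCF-1 (Tcf7) and lymph node homing receptors, and interferon-stimulated genes are switched on by type I interferon through a complex of STAT and IRF factors. Metallothioneins are small zinc- and copper-binding proteins made when free metal activates the factor MTF1.

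Interferon-stimulated genes and metallothioneins stood at opposite ends of the comparison, so the promoters of 2 genes of each kind are shown. The sequences are RefSeq's for build GRCm38.p6, from 250 bases before to 50 bases after the start site, read along the gene. For the count data the methods name GRCm39 and the labels mm10, so the positions belong to the promoter table only. The first pair is Isg15 (chr4:156200769-156201068, minus strand) and Ifit3 (chr19:34583279-34583578, plus strand), with the core of the interferon-stimulated response element, GAAANNGAA on either strand, in capitals.
Isg15: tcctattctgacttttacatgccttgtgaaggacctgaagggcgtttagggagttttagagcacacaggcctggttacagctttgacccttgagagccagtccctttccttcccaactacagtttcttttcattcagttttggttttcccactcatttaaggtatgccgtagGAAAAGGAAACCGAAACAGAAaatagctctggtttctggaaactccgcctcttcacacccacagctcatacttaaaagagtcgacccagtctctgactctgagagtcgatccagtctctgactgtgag
Ifit3: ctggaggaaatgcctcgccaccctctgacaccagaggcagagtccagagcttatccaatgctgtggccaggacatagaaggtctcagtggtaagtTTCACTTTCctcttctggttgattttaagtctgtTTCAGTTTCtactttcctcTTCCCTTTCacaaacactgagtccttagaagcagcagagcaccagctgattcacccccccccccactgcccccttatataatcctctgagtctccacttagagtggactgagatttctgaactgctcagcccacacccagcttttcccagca
The second pair is Mt1 (chr8:94178839-94179138, plus strand) and Mt2 (chr8:94172368-94172667, plus strand), with the core of the metal response element, TGCACNC or TGCGCNC on either strand, in capitals.
Mt1: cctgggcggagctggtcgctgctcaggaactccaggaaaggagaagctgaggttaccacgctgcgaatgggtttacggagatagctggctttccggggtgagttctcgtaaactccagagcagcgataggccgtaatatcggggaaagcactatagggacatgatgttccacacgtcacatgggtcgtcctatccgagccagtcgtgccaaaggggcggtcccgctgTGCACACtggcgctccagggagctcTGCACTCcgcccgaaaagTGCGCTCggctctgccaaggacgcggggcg
Mt2: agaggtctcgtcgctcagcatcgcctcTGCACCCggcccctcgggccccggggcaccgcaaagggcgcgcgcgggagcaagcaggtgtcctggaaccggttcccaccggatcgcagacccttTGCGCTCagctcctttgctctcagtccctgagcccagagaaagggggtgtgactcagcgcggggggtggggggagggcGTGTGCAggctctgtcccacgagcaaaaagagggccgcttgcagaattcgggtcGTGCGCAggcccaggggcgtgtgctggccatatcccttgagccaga
Isg15 held 3 overlapping matches that began 78, 72 and 66 bases before the start site, and Ifit3 held 3 separate ones. Mt1 held 3 metal element matches and Mt2 held 4. Of the 24 interferon-stimulated genes that were at 10 CPM or more and had a promoter in the table, 17 (70.8%) held the interferon element, against 9.08% of the 6011 compared genes with a promoter. The metal element is common, and 40.7% of the compared genes with a promoter held it. Among the 15 genes with the lowest ratios at 50 CPM or more, 4 held it (26.7%), namely Mt1, Mt2, Gzma and Cdkn2a, and the windows of the others, Il1r2, Gzmd, Gzme and Gzmf among them, did not. A match is a description of the letters and not a bound site.

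Both libraries were deep and held T cells. Kept UMIs summed to 166772854 under IL-2/21-Trikine and 168041089 under sIL-2 + IL-21, with medians of 10254 and 14055.5 UMIs per cell. The T cell identity genes did not separate them: all 12 were at 10 CPM or more in both and none passed 0.5, and Cd3e, a chain of the receptor complex, stood at 617 and 601 CPM. Over all genes 3.36% were higher and 3.32% lower past 0.5. The IL-2/21-Trikine library held more shallow cells, 13.3% under 2000 UMIs against 3.72%, and fewer cells over 15000 UMIs, 29.9% against 46.7%. Its share of cells with at least 3 UMIs of 48 cell cycle genes, after every cell was thinned to 2000 UMIs, was 46.0% against 54.9%. The libraries shared 41 cell barcodes. These differences in depth and cycling move with the comparison, and ratios within cells of like depth and of like cycling are given for the lists and genes they moved most.

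Most genes stood at nearly the same level. The median log2 ratio was 0.00, and 76.4% of the 7489 genes lay within 0.25 of 0. The genes higher under IL-2/21-Trikine numbered 252 (3.36%) and the lower ones 249 (3.32%). At a log2 ratio of 1, they numbered 53 (0.708%) and 74 (0.988%). The near balance of higher and lower genes depended on the cells summed. Past 0.5, there were 181 higher and 283 lower genes after every cell was thinned to 2000 UMIs, 190 and 308 in cells with no cell cycle UMI, and 114 and 290 in cells of 5000 to 15000 UMIs, each over the genes at 10 CPM or more in those cells. The 3056 genes at 50 CPM or more had counting intervals no wider than 0.152 in log2 units, so counting error is small beside a ratio past 0.5, and the variation between mice or between libraries of 1 treatment is unknown. The leading higher genes were mostly interferon-stimulated, together with Tcf7. The leading lower genes were granzymes, perforin, both metallothioneins and a set of receptors, as the plots of all genes and of the leading genes show.

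**Figure D1:**
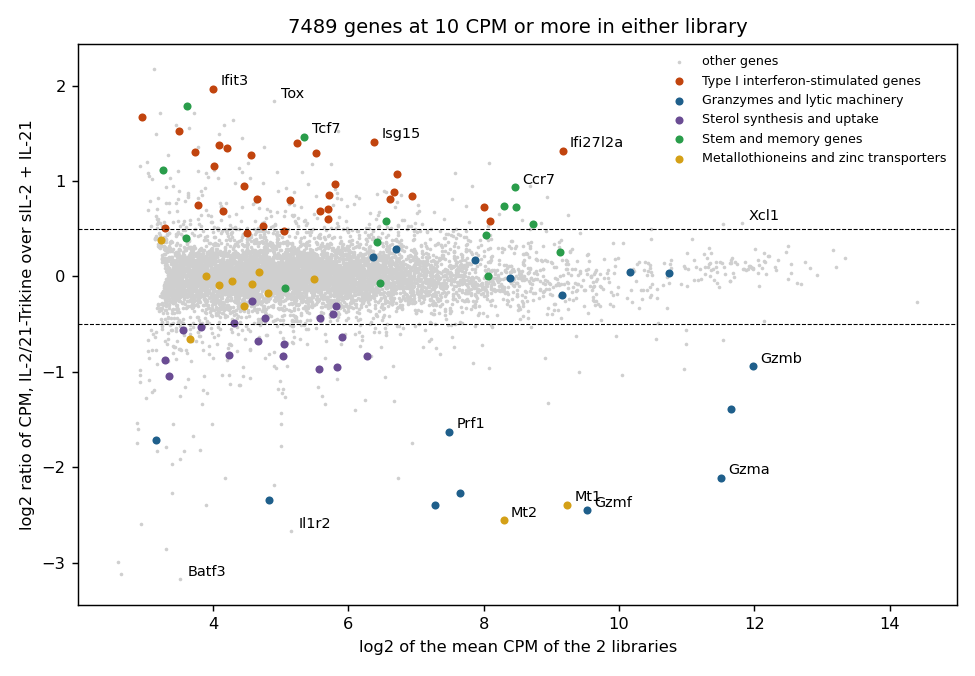
Each point is 1 of 7489 genes, with the log2 of its mean CPM in the 2 libraries on the horizontal axis and the log2 ratio, IL-2/21-Trikine over sIL-2 + IL-21, on the vertical axis. Dashed lines mark 0.5 and -0.5, and members of 5 gene lists are colored. Of the 32 interferon-stimulated genes, 30 lie above the upper line, and Gzma, Gzmf, Mt1 and Mt2 lie below the lower one with log2 ratios from -2.56 to -2.11.

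**Figure D2:**
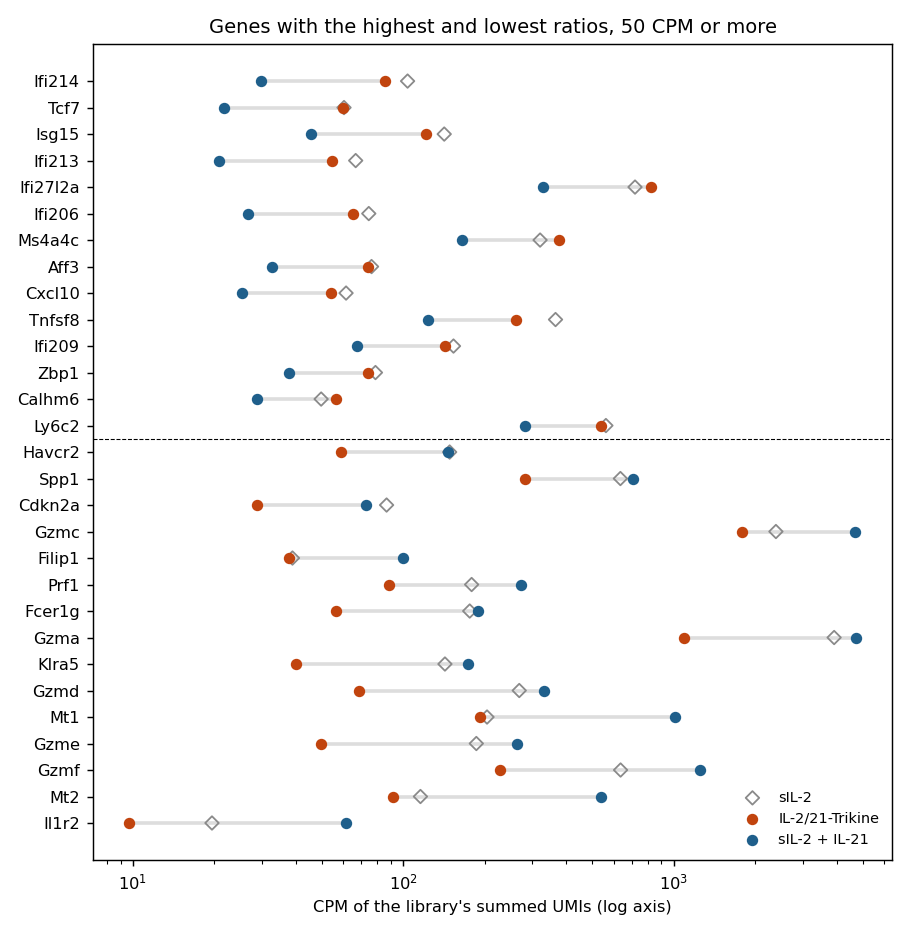
CPM on a log axis of 14 of the 15 genes with the highest (top) and the 15 with the lowest (bottom) log2 ratios among genes at 50 CPM or more, 1 point per library, under sIL-2 as open diamonds. The sIL-2 level of Isg15 lies beside that of IL-2/21-Trikine, that of Havcr2 beside that of sIL-2 + IL-21, and that of Gzmf between the 2.

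Granzymes, the serine proteases of cytotoxic granules, were lower under IL-2/21-Trikine. Of the 17 genes listed for granzymes and lytic machinery, 16 reached 10 CPM, 9 were lower under IL-2/21-Trikine and none was higher, beside 3.32% of all genes lower, with a median log2 ratio of -1.17 against 0.00 over all genes. The list median was -0.61 in cells of 2000 to 5000 UMIs, -0.85 in cells of 5000 to 15000, -1.07 in cells over 15000 and -1.004 in cells with no cycle UMI. The 9 were Gzma to Gzmg, Gzmk and Prf1. The whole list summed to 10315 CPM under IL-2/21-Trikine, 21043 CPM under sIL-2 + IL-21 and 16617 CPM under sIL-2. None of the remaining 7 members passed 0.5, among them the granule proteoglycan gene Srgn (1742 and 1694 CPM) and Nkg7, a granule membrane gene (1163 and 1128 CPM). The difference thus lay in these granzymes and perforin, and the listed proteases Gzmm and Ctsw were not among the 9.

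Gzma stood at 1093 CPM under IL-2/21-Trikine, 4722 CPM under sIL-2 + IL-21 and 3917 CPM under sIL-2, a log2 ratio of -2.11 (-2.12 to -2.10). Gzmb, the main inducer of target cell death among granzymes, was at 2764, 5307 and 3449 CPM in the same order, a log2 ratio of -0.94 (-0.95 to -0.94), but -0.43 in cells of 5000 to 15000 UMIs and -0.56 in cells with no cycle UMI. Prf1, which forms the pore, was at 88.1, 272 and 179 CPM, a log2 ratio of -1.63. IL-2/21-Trikine was the lowest of the 3 libraries for each of these genes. The clustered granzymes C to G are close paralogs, and reads could be shared among them. Gzmc was at 1783 CPM against 4674 CPM under sIL-2 + IL-21 and 2386 CPM under sIL-2. Gzmf was at 228 CPM against 1247 and 636 CPM, a log2 ratio of -2.45 (-2.47 to -2.43). Gzmd, Gzme and Gzmg had log2 ratios of -2.27, -2.40 and -2.34, so the less abundant members of the cluster differed more than Gzmc did. Gzmg, at 9.35 and 47.4 CPM, entered through sIL-2 + IL-21, the side where it was high.

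In single cells the granzyme difference was one of both how many cells and how much per cell. After thinning to 2000 UMIs, which left out 1775 IL-2/21-Trikine cells and 364 sIL-2 + IL-21 cells with fewer, Gzma was found in 45.2% (44.3 to 46.1%) of IL-2/21-Trikine cells and in 81.3% (80.5 to 82.0%) of sIL-2 + IL-21 cells. Without thinning, the shares were 64.88% and 92.96%. Cells with Gzma held a mean of 4.37 UMIs of it under IL-2/21-Trikine and 11.5 under sIL-2 + IL-21. Gzmf was in 5.57% and 23.6% of cells, with 5.02 and 8.10 UMIs per positive cell. For comparison, Pmel, a melanoma gene, was in 0.243% and 0.148% of thinned cells and Lyz2, a macrophage gene, in 0.295% and 0.170%. Both genes were rare in the libraries, so their shares do not set a background for abundant granzymes, and Gzmg, at 0.312% under IL-2/21-Trikine, was at their level. The UMIs of granzymes C to G reached at least 10 per cell in 9.74% of IL-2/21-Trikine cells, 33.1% of sIL-2 + IL-21 cells and 13.7% of sIL-2 cells.

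Mt1 and Mt2 were among the 5 genes with the lowest ratios at 50 CPM or more. Mt1 was at 192 CPM under IL-2/21-Trikine, 1010 CPM under sIL-2 + IL-21 and 204 CPM under sIL-2, a log2 ratio of -2.39 (-2.41 to -2.38). Mt2 was at 91.2, 536 and 116 CPM, a log2 ratio of -2.56 (-2.58 to -2.53). The IL-2/21-Trikine and sIL-2 levels lay close together, and sIL-2 + IL-21 stood apart. Mt3, a further metallothionein that was named after its value was seen, was below 10 CPM in both libraries at 1.83 and 9.30 CPM. The median of 12 listed metallothionein and zinc transporter genes at 10 CPM or more was -0.08. Of these, 3 were lower (25%, against 3.32% of all genes) and none was higher. The third was the zinc importer gene Slc39a14, at 9.83 and 15.5 CPM. Of the compared libraries, it reached 10 CPM only under sIL-2 + IL-21, the side where it was high. Mtf1, which encodes the metal-sensing factor itself, was at 16.4 and 17.5 CPM, and the exporters Slc30a1 (6.87 and 8.53 CPM) and Slc30a5 (26.0 and 25.1 CPM) were also near each other.

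Metallothionein UMIs were concentrated in a minority of cells. After thinning, 12.6% (11.9 to 13.3%) of sIL-2 + IL-21 cells held at least 5 UMIs of Mt1 and Mt2 together, against 1.48% (1.27 to 1.72%) under IL-2/21-Trikine and 1.45% (1.20 to 1.75%) under sIL-2. These cells were set beside cells without any Mt1 or Mt2 UMI, a division made after the values were seen. Among the 1186 such cells of the sIL-2 + IL-21 library, Gzmc was found in 95.03%, Prf1 in 44.9%, Gzmf in 37.0% and Il1r2 in 14.3%. Among its 4860 cells with no metallothionein UMI, the shares were 57.3%, 14.9%, 15.4% and 4.63%. Tcf7 ran the other way, with 0.337% of the high cells and 9.05% of the cells with none. So did Isg15 (2.53% and 11.5%) and the T cell gene Cd3e (60.8% and 75.1%). Mki67, a cell cycle gene, was in 24.5% and 15.8%. The Gzmc pattern was not particular to this library. In the same order, Gzmc was in 70.2% and 36.9% of such IL-2/21-Trikine cells, and in 82.6% and 33.0% of such sIL-2 cells. Granzymes also differed between the libraries outside the high cells. Among cells with no metallothionein UMI, Gzma was found in 44.1% under IL-2/21-Trikine and 77.8% under sIL-2 + IL-21, and Gzmf in 4.25% and 15.4%.

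**Figure D3:**
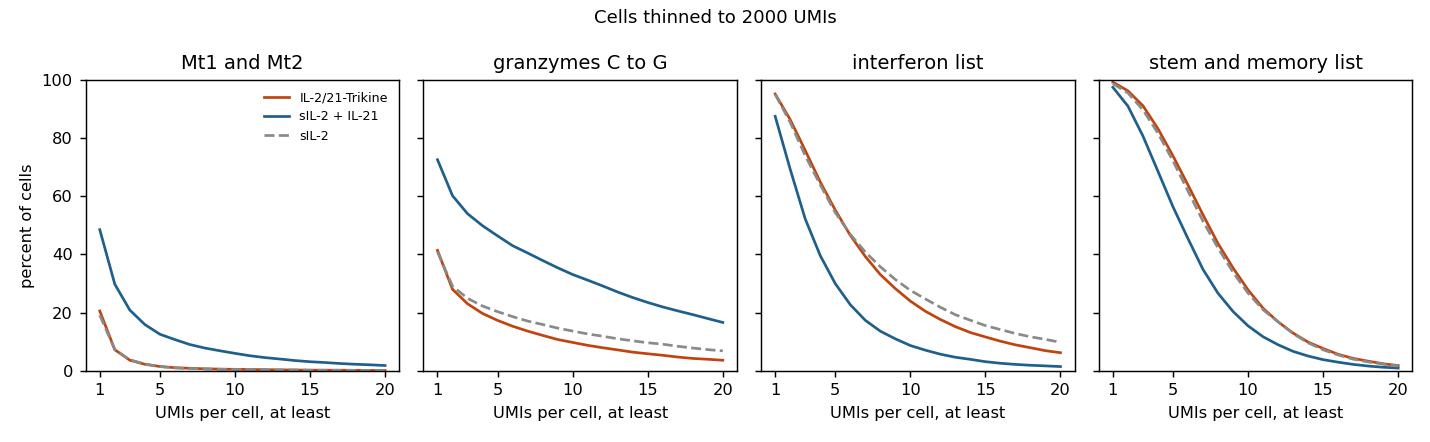
Percent of cells (vertical axis) that held at least the number of UMIs on the horizontal axis, for Mt1 and Mt2 together, granzymes C to G, the interferon list and the stem and memory list, in cells thinned to 2000 UMIs. At 5 UMIs of Mt1 and Mt2, sIL-2 + IL-21 is at 12.6%, IL-2/21-Trikine at 1.48% and sIL-2 at 1.45%, and the interferon and stem curves of IL-2/21-Trikine lie above those of sIL-2 + IL-21.

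A group of receptors and regulators went with the lower genes. Il1r2, the decoy receptor for IL-1, was at 9.67 CPM under IL-2/21-Trikine, 61.5 CPM under sIL-2 + IL-21 and 19.6 CPM under sIL-2, a log2 ratio of -2.67 (-2.75 to -2.59), the lowest among genes at 50 CPM or more. It was the only lower gene among 5 listed IL-1 and IL-18 family receptor genes at 10 CPM or more, and the IL-18 receptor gene Il18r1 was at 176 and 200 CPM. Batf3, an AP-1 family factor, was at 2.28 CPM against 20.6 CPM, with 2.48 CPM in sIL-2, a log2 ratio of -3.17 (-3.33 to -3.02). Both genes therefore had their highest level under sIL-2 + IL-21. Of the 2 compared libraries, they reached 10 CPM only there, so they entered through the side where they were high. After thinning, Batf3 was found in 0.243% of IL-2/21-Trikine cells, a share as low as that of Pmel, and in 2.17% of sIL-2 + IL-21 cells. Its log2 ratio was -1.74 in cells with no cycle UMI. Klra5, an inhibitory receptor of the Ly49 family whose members share sequence, was at 40.1, 174 and 142 CPM, and Fcer1g, a signaling adaptor of activating receptors, was at 56.1, 189 and 176 CPM. For these 2 genes sIL-2 lay beside sIL-2 + IL-21. Fcer1g is also 1 of 3 listed NK cell markers, of which Ncr1 was near 0 (0.0720 and 0.202 CPM) and Klrb1c was under 10 CPM in both libraries.

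Other leading lower genes came from separate pathways. Spp1, the secreted matrix protein osteopontin, was at 282 CPM under IL-2/21-Trikine, 704 CPM under sIL-2 + IL-21 and 635 CPM under sIL-2. Cdkn2a, which encodes cell cycle inhibitors, was at 28.6, 72.6 and 86.7 CPM. Filip1, a regulator of actin-binding filamin, was at 37.8, 99.8 and 38.9 CPM. For Filip1, as for the metallothioneins, sIL-2 lay beside IL-2/21-Trikine, while for Spp1 and Cdkn2a it lay beside or above sIL-2 + IL-21. Their log2 ratios were -1.32 for Spp1, -1.34 for Cdkn2a and -1.40 for Filip1.

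Interferon-stimulated genes as a group differed in the opposite direction. Of 41 listed genes, 32 reached 10 CPM, 30 were higher under IL-2/21-Trikine (93.8%, against 3.36% of all genes) and none was lower. Their ratios ran from 0.46 to 1.97 with a median of 0.87, and all 32 lay above 0. The 2 that did not pass 0.5 were Stat2 (0.46) and Rigi (0.48). Summed over the list, the level was 3056 CPM under IL-2/21-Trikine, 1566 CPM under sIL-2 + IL-21 and 3314 CPM under sIL-2. Here IL-2/21-Trikine and sIL-2 were close to each other, and sIL-2 + IL-21 was low.

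Isg15, a ubiquitin-like modifier, was at 121 CPM under IL-2/21-Trikine, 45.6 CPM under sIL-2 + IL-21 and 142 CPM under sIL-2, a log2 ratio of 1.41 (1.37 to 1.45). Ifi27l2a, a mitochondrial interferon-induced gene and the most abundant of the list, was at 821, 329 and 719 CPM, a log2 ratio of 1.32. Ifit3, an antiviral RNA-binding family member, was at 25.5, 6.53 and 40.4 CPM, with the highest ratio of the list at 1.97 (1.87 to 2.07). Each was lowest under sIL-2 + IL-21. Rsad2 (viperin) and Ifit1 had log2 ratios of 1.67 and 1.52 at low levels of 11.8 and 16.8 CPM under IL-2/21-Trikine. Of the compared libraries, Ifit3, Rsad2 and Ifit1 reached 10 CPM only under IL-2/21-Trikine, so they entered through the side where they were high. The DNA-sensing Ifi200 family, in which reads can be shared among close paralogs, supplied 4 of the 15 highest ratios, Ifi214 (85.9 and 29.8 CPM, log2 ratio 1.53), Ifi213 (1.40), Ifi206 (1.29) and Ifi209 (1.07). Zbp1, a sensor of Z-form nucleic acid, was at 73.9 and 37.7 CPM, and Cxcl10, an interferon-induced chemokine, at 54.2 and 25.4 CPM.

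The interferon difference was broad over cells. At least 5 UMIs of the 41 genes were found in 55.2% (54.3 to 56.1%) of thinned IL-2/21-Trikine cells, 30.0% (29.0 to 30.9%) of sIL-2 + IL-21 cells and 54.4% (53.3 to 55.5%) of sIL-2 cells, and at least 10 UMIs in 24.0%, 8.68% and 27.6%. Isg15 was found in 17.4% of thinned cells against 8.87%, and in 39.1% against 28.7% without thinning. The list's median was 0.85 in cells of 2000 to 5000 UMIs, 0.63 in cells of 5000 to 15000 and 0.89 in cells over 15000. It was 0.81 in cells with no cell cycle UMI after thinning and 0.84 in cells with at least 3. The interferon difference was thus present in each of these depth ranges and in cycling and noncycling cells.

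MHC class I genes, which interferon also induces, showed a smaller difference in the same direction. Of 19 listed genes, all at 10 CPM or more, 3 were higher (15.8%, against 3.36% of all genes) and none lower. Their median was 0.30. The nonclassical genes H2-T23 (205 and 135 CPM, log2 ratio 0.60) and H2-T22 (151 and 102 CPM, 0.56) passed, as did the class I transactivator Nlrc5 (93.05 and 65.5 CPM, 0.51). H2-K1 and B2m had log2 ratios of 0.39 and 0.29, and the immunoproteasome gene Psmb8 was at 406 and 397 CPM. Class I genes are near-copies of each other, which makes the split of reads among them uncertain.

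MHC class II genes are made by antigen-presenting cells and at low level by other cells, so markers of other cell types are given beside them. Of 5 class II genes at 10 CPM or more, 3 were higher (60%, against 3.36% of all genes). They were H2-Aa (14.3 and 4.36 CPM), H2-Eb1 (13.1 and 4.68 CPM) and Cd74 (55.1 and 35.0 CPM). H2-Ab1 was not, at 20.5 and 22.4 CPM. Of the compared libraries, H2-Aa and H2-Eb1 reached 10 CPM only under IL-2/21-Trikine, so they entered through the side where they were high. With a minimum of 10 CPM in the mean of the 3 libraries, 3 members remained. The list median then went from 0.65 to 0.21. None of 10 macrophage and monocyte markers reached 10 CPM, and their summed level was 14.2 CPM under IL-2/21-Trikine and 6.45 CPM under sIL-2 + IL-21, with C1qa at 0.606 and 0.0952 CPM. None was at 0. Dendritic markers summed to 25.4 and 26.7 CPM, with Siglech at 0 in both. When cells with at least 3 UMIs of melanoma, macrophage, neutrophil, dendritic, B or red cell markers were left out (10.5% and 10.4% of cells, with 20.5% and 16.4% of UMIs), the log2 ratio of H2-Aa went from 1.72 to 0.58, that of H2-Eb1 from 1.49 to 0.73 and that of Cd74 from 0.65 to 0.45. The median of the interferon list became 0.89 and that of the granzyme list -1.18 without those cells. The part of other cells and of depth in the class II ratios was not tested.

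Markers of other cells were otherwise low. No melanoma, neutrophil, CD4 and regulatory T cell or red cell marker reached 10 CPM in either library. The 8 melanoma markers summed to 15.1 CPM under IL-2/21-Trikine and 7.83 CPM under sIL-2 + IL-21, and the 5 neutrophil markers to 2.49 and 8.90 CPM. Ighm, the IgM heavy chain, was higher under IL-2/21-Trikine at 29.8 and 9.59 CPM, yet the defining B cell genes Cd79a (0.0720 and 0.107 CPM), Ms4a1 and Pax5 were at or near 0. Of the compared libraries, Ighm reached 10 CPM only under IL-2/21-Trikine. Its log2 ratio was 1.63 with all cells and 1.70 without cells of other markers. Ighm itself counts among those B cell markers, so the second value is no separate check of where its UMIs came from. It was found in 17.9% and 8.65% of unthinned cells, so Ighm UMIs also counted toward the cells left out for the class II genes above.

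Part of the genes of less differentiated T cells were higher under IL-2/21-Trikine. Of 16 listed stem and memory genes, 15 reached 10 CPM, 8 were higher (beside 3.36% of all genes) and none was lower, with a median of 0.54. Beside Tcf7 and Ccr7, the 8 held Slamf6, Klf2, Bach2, Foxp1 and Satb1. Tcf7 was at 59.9 CPM under IL-2/21-Trikine, 21.7 CPM under sIL-2 + IL-21 and 60.3 CPM under sIL-2. Slamf6, a receptor of progenitor cells, was at 13.1, 6.08 and 8.58 CPM, a log2 ratio of 1.11. Slamf6 was highest under IL-2/21-Trikine, whereas the Tcf7 levels of IL-2/21-Trikine and sIL-2 were close. Slamf6 reached 10 CPM only under IL-2/21-Trikine, so it entered through the side where it was high. Its log2 ratio was 0.61 after thinning. With a minimum of 10 CPM in the mean of the 3 libraries, 13 stem and memory genes remained, with a median of 0.43. Klf2, which drives the egress receptor S1pr1, was at 113, 75.3 and 97.1 CPM, while S1pr1 was at 13.8, 10.5 and 23.8 CPM. Lef1, a relative of Tcf7, was at 86.4 and 90.7 CPM and did not follow it.

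Unlike the interferon list, the stem genes differed mainly in cells with more UMIs. The Tcf7 log2 ratio was 0.04 (-0.21 to 0.29) in cells of 2000 to 5000 UMIs, 0.73 in cells of 5000 to 15000 and 2.02 in cells over 15000. By cycling, it was 0.77 in cells with no cell cycle UMI and 1.78 in cells with at least 3. Over the 15 list members, the median was 0.04, 0.29 and 0.55 in the 3 depth ranges, and 0.25 and 0.52 in the cells with 0 and with 3 or more cycle UMIs. Klf2 had a log2 ratio of 0.58 over all cells and -0.026 in cells with no cycle UMI. The share of cells with a Tcf7 UMI after thinning was 12.1% (11.5 to 12.8%) against 5.90% (5.44 to 6.40%), and 34.5% against 19.5% unthinned. Cells over 15000 UMIs held 58.4% of all UMIs in the IL-2/21-Trikine library and 73.4% in the other, so these cells weigh most in summed levels.

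**Figure D4:**
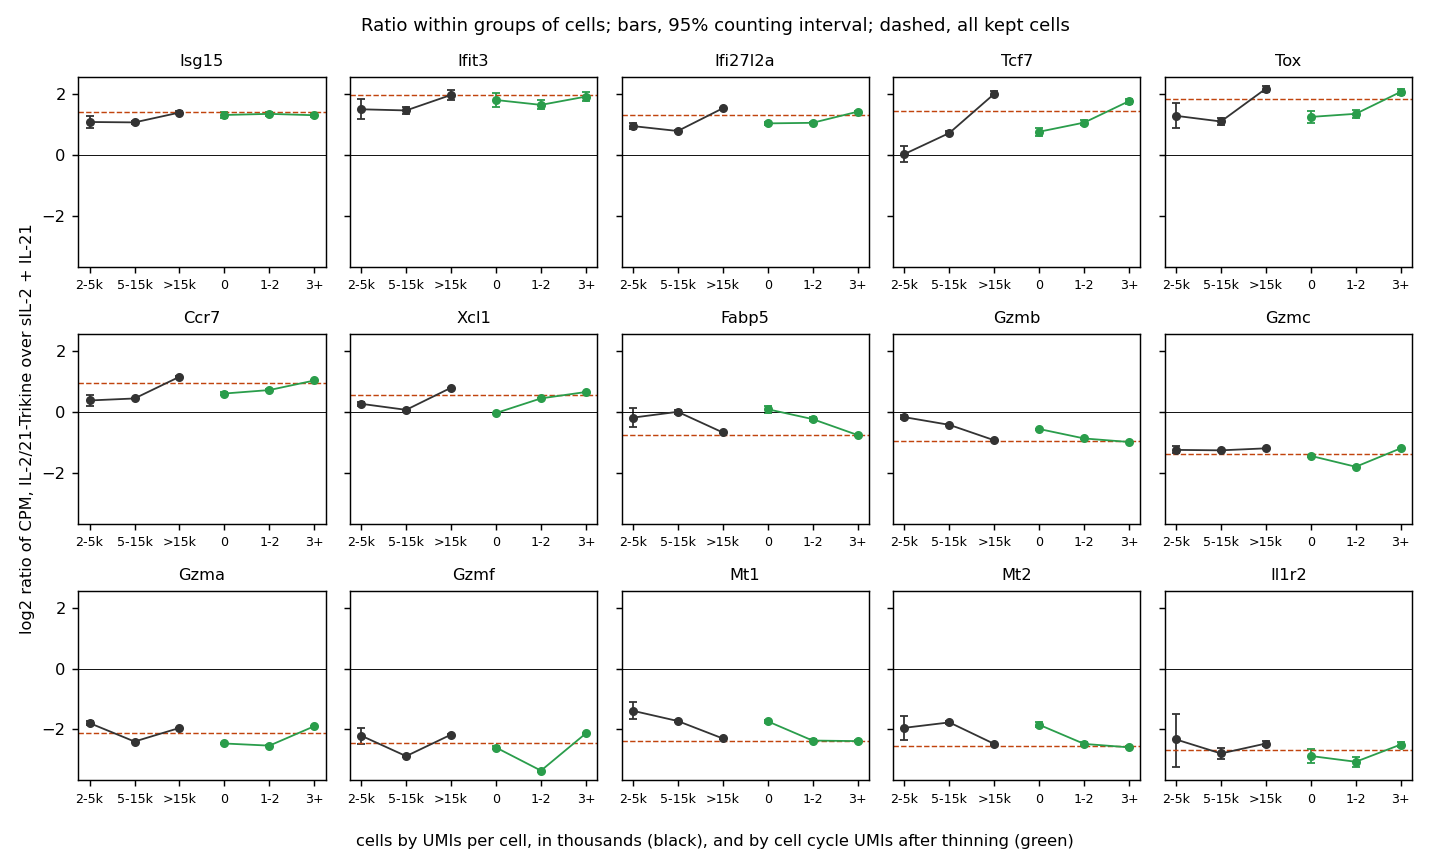
Log2 ratio of CPM, IL-2/21-Trikine over sIL-2 + IL-21 (vertical axis), of 15 genes within cells grouped by UMIs per cell (black) and by cell cycle UMIs after thinning (green), with 95% counting intervals and the value over all kept cells as a dashed line. Isg15 stays between 1.08 and 1.40 and Gzma between -2.53 and -1.79 in every group of cells, Tcf7 goes from 0.04 to 2.02 with depth, and Fabp5 and Xcl1 are near 0 in cells without cycle UMIs.

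Many other named genes depended on depth or cycling in the same way. Of the 87 named genes past 0.5, 41 had a ratio smaller by over 1.5 times and 4 a larger one in cells of 5000 to 15000 UMIs, where 27 no longer passed 0.5. In cells with no cycle UMI, 25 were smaller, 1 was larger and 21 no longer passed. Among genes below, log2 ratios in cells of 5000 to 15000 UMIs were 0.04 for Tnfsf14, 0.06 for Klrc2, 0.33 for Klrk1, 0.45 for Penk, 0.48 for Spry1, 0.49 for Cxcr3, 0.37 for Malat1, -0.39 for Runx3, -0.40 for Bnip3 and -0.38 for Hilpda. Among genes already described, they were 0.44 for Ccr7, 0.18 for Cd74, 0.37 for H2-T23, 0.40 for H2-T22, 0.25 for Nlrc5 and -0.46 for Slc39a14. None of these 16 genes passed 0.5 there. In cells with no cycle UMI, the ratios were 0.20 for Tnfsf14, 0.35 for Penk, 0.25 for Malat1, -0.36 for Bnip3 and -0.53 for Prdm1. Il3 (-2.26), Cd81 (-1.57), Tnfsf11 (-1.17) and Ccnb2 (-1.03) were the 4 with a larger ratio in cells of 5000 to 15000 UMIs.

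Homing receptors followed the stem genes in part. The median of 17 listed homing, egress and residency genes at 10 CPM or more was 0.33. Of these, 4 were higher (23.5%, against 3.36% of all genes) and none lower. Among the 4 were Ccr7, Klf2 and Cxcr3, the receptor for interferon-induced chemokines, at 44.4, 23.3 and 49.2 CPM. The residency gene Cd69 was at 424 and 402 CPM. The median of this list was 0.02 in cells with no cycle UMI.

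Inhibitory receptors split in direction. Of 12 at 10 CPM or more, 2 were higher (16.7%, against 3.36% of all genes) and 4 lower (33.3%, against 3.32%). The lower ones were Havcr2 (TIM-3), Pdcd1 (PD-1), Entpd1 (CD39) and Cd244a (2B4), the last at 13.2 CPM under IL-2/21-Trikine, 29.0 CPM under sIL-2 + IL-21 and 24.4 CPM under sIL-2. The higher ones were Nt5e, which encodes the adenosine-producing enzyme CD73, at 18.6, 6.31 and 30.5 CPM, and Btla at 18.8, 8.72 and 13.6 CPM. Their log2 ratios were 1.56 (1.46 to 1.66) and 1.11 (1.02 to 1.20). Of the compared libraries, both reached 10 CPM only under IL-2/21-Trikine, so they entered through the side where they were high. Ctla4 and Lag3 had log2 ratios of 0.17 and 0.24.

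Transcription factors of effector and exhausted cells also split, with a median of -0.26. Of 15, 2 were higher (13.3%, against 3.36% of all genes) and 4 lower (26.7%, against 3.32%). Tox, a factor of exhausted and progenitor-exhausted cells, was at 46.7 CPM under IL-2/21-Trikine, 13.1 CPM under sIL-2 + IL-21 and 33.1 CPM under sIL-2, a log2 ratio of 1.83 (1.76 to 1.90). Ikzf2 (Helios), the other higher one, was at 163, 111 and 122 CPM. Prdm1 (Blimp-1), a driver of terminal effector cells, was at 7.95, 16.8 and 18.2 CPM, and Runx3, a factor of cytotoxic T cells, at 145, 224 and 182 CPM. Batf3 and Maf were the other lower ones. Of the compared libraries, Prdm1 and Batf3 reached 10 CPM only under sIL-2 + IL-21, the side where they were high. Tox and Prdm1 thus differed in opposite directions. Tbx21 (T-bet) had a log2 ratio of -0.31, Batf was at 41.1 CPM in both libraries, and Bhlhe40 was at 348 and 355 CPM.

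The receptors that the 2 treatments address were at similar RNA levels. None of 14 cytokine receptor genes at 10 CPM or more passed 0.5 in either direction. Over all genes 3.36% were higher and 3.32% lower, so few of 14 would pass at those shares. Il2rb was at 327 CPM under IL-2/21-Trikine, 404 CPM under sIL-2 + IL-21 and 497 CPM under sIL-2. Il2ra was at 285, 314 and 394 CPM, the common gamma chain gene Il2rg at 373, 303 and 394 CPM, and Il21r at 130, 111 and 157 CPM. Their log2 ratios were -0.30 for Il2rb, -0.14 for Il2ra, 0.30 for Il2rg and 0.23 for Il21r. Il7r was at 269 and 267 CPM.

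Downstream genes differed little in the day 18 cells. Of 19 JAK-STAT genes at 10 CPM or more, 2 were higher (10.5%, against 3.36% of all genes) and 1 lower (5.26%, against 3.32%). Stat3 was at 528 and 533 CPM, and Cish, a STAT5-induced inhibitor, at 133 and 135 CPM. Stat5a and Stat5b had log2 ratios of 0.37 each. Socs3, a STAT3-induced inhibitor, was below 10 CPM in both libraries at 6.97 and 7.81 CPM and in 1.37% and 1.49% of thinned cells. Pim2, a survival kinase, was higher at 40.5 and 21.7 CPM, a log2 ratio of 0.90, and Socs2, a feedback inhibitor, was lower at 20.6 and 40.2 CPM, a log2 ratio of -0.96.

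Among secreted factors the lower genes were hematopoietic growth factors and osteopontin. There were 12 effector cytokine and secreted factor genes at 10 CPM or more. Of these, 1 was higher (8.33%, against 3.36% of all genes) and 3 were lower (25%, against 3.32%). Csf2 (GM-CSF) was at 342 CPM under IL-2/21-Trikine, 620 CPM under sIL-2 + IL-21 and 590 CPM under sIL-2. Il3 was at 20.1, 45.5 and 54.0 CPM, and it was found in 0.816% and 1.93% of thinned cells. Ifng was at 617 and 665 CPM and Tnf at 27.6 and 31.1 CPM, so these effector cytokines did not differ in the way granzymes did. Penk, which encodes an opioid peptide precursor, was the higher one at 31.2 and 18.1 CPM. Of 7 chemokine genes at 10 CPM or more, Xcl1, which attracts cross-presenting dendritic cells, and Cxcl10 were higher (28.6%, against 3.36% of all genes). Xcl1 was at 4281, 2911 and 4274 CPM, a log2 ratio of 0.56, but -0.037 in cells with no cycle UMI. Ccl3 was at 871 and 882 CPM and Ccl5 at 935 and 895 CPM.

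There were 15 TNF superfamily and costimulatory genes at 10 CPM or more. Of these, 3 were higher (20%, against 3.36% of all genes) and 2 lower (13.3%, against 3.32%). Tnfsf8, the CD30 ligand, was at 260 CPM under IL-2/21-Trikine, 123 CPM under sIL-2 + IL-21 and 365 CPM under sIL-2, and Tnfsf14 (LIGHT) at 15.2, 10.1 and 25.4 CPM. The log2 ratio of Tnfsf8 was 1.08 over all cells and 0.66 in cells with no cycle UMI. At its lowest over the choices of cells tried, it was 0.495 and did not pass 0.5. Tnfsf11 (RANKL) was lower at 142, 236 and 145 CPM, as was the tetraspanin Cd81 at 12.3, 25.2 and 7.43 CPM. The third higher gene was Cd27, with a log2 ratio of 0.51. Of 6 killer lectin-like receptor genes at 10 CPM or more, Klrk1 (NKG2D), at 551 and 374 CPM, and Klrc2 were higher (33.3%, against 3.36% of all genes). Their median of 0.36 over the list was -0.022 in cells with no cycle UMI. Klra5, a killer lectin-like receptor gene outside the list, was lower at 40.1 and 174 CPM, a log2 ratio of -2.11. Of 25 early response genes, 1 was higher (Spry1) and 1 lower (Egr1, 45.3 and 74.0 CPM), each 4% and near the share of all genes. Nr4a2, induced by antigen receptor signals, was at 407 and 398 CPM.

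Cholesterol synthesis was lower as a set under IL-2/21-Trikine. Of 22 listed genes of sterol synthesis and uptake, 18 reached 10 CPM, 12 were lower (66.7%, against 3.32% of all genes), none was higher and all 18 had a ratio below 0, from -1.05 to -0.26 with a median of -0.66. Hmgcs1, which makes the substrate of the rate-limiting step, was at 31.8 CPM under IL-2/21-Trikine, 62.6 CPM under sIL-2 + IL-21 and 30.3 CPM under sIL-2. Fdps, a step on the way to farnesyl groups, was at 39.0, 75.4 and 29.0 CPM. In each case the sIL-2 level lay by that of IL-2/21-Trikine. The summed level of the list was 505, 788 and 454 CPM. The list median of -0.66 compares with -0.56 in cells of 5000 to 15000 UMIs, -0.56 in cells over 15000, -0.59 in cells with no cycle UMI and -0.54 in cells with at least 3.

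Other metabolic lists differed less. The median of 24 glycolysis and hypoxia genes at 10 CPM or more was -0.37. Of these, 6 were lower (25%, against 3.32% of all genes) and none higher. Bnip3, a hypoxia-induced mitophagy gene, was at 36.8, 77.5 and 67.3 CPM, and Hilpda, a lipid droplet gene, at 227, 329 and 469 CPM. The list's median was -0.10 in cells of 5000 to 15000 UMIs and -0.44 in cells over 15000. Fabp5, a fatty acid carrier, was at 117, 196 and 70.0 CPM, a log2 ratio of -0.75, but 0.0026 in cells of 5000 to 15000 UMIs and 0.088 in cells with no cycle UMI. None of 79 oxidative phosphorylation genes, 80 cytosolic ribosomal protein genes, 16 heat shock chaperone genes, 14 p53 target genes or 11 BCL2 family genes at 10 CPM or more passed 0.5, and of 13 ATF4 and amino acid response genes only Ddit4 did (54.4 and 90.4 CPM). Past 0.5, 3.36% of all genes were higher and 3.32% lower, so few members of the shorter lists would pass at those shares.

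Cell cycle genes leaned lower over all cells, and their medians varied with the cells summed. None of 26 S phase genes and 1 of 22 G2 and mitosis genes passed 0.5, with medians of -0.16 and -0.26. Among all genes 3.36% were higher and 3.32% lower past 0.5. In cells of 2000 to 5000, 5000 to 15000 and over 15000 UMIs, the S phase median was -0.12, 0.08 and 0.02. The G2 and mitosis median was 0.21, -0.59 and 0.026 in the same order. In cells with no cycle UMI, the medians were 0.05 for S phase and -0.37 for G2 and mitosis. The G2 and mitosis median was -0.44 with 1 or 2 cycle UMIs and -0.05 with 3 or more. Cycling groups were formed with these same genes, so medians within them are no separate check. Ccnb2, a mitotic cyclin, was at 74.8 CPM against 114 CPM, with 56.4 CPM in sIL-2. Mki67 was at 181, 204 and 130 CPM. Both libraries lay above sIL-2 for these genes.

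**Figure D5:**
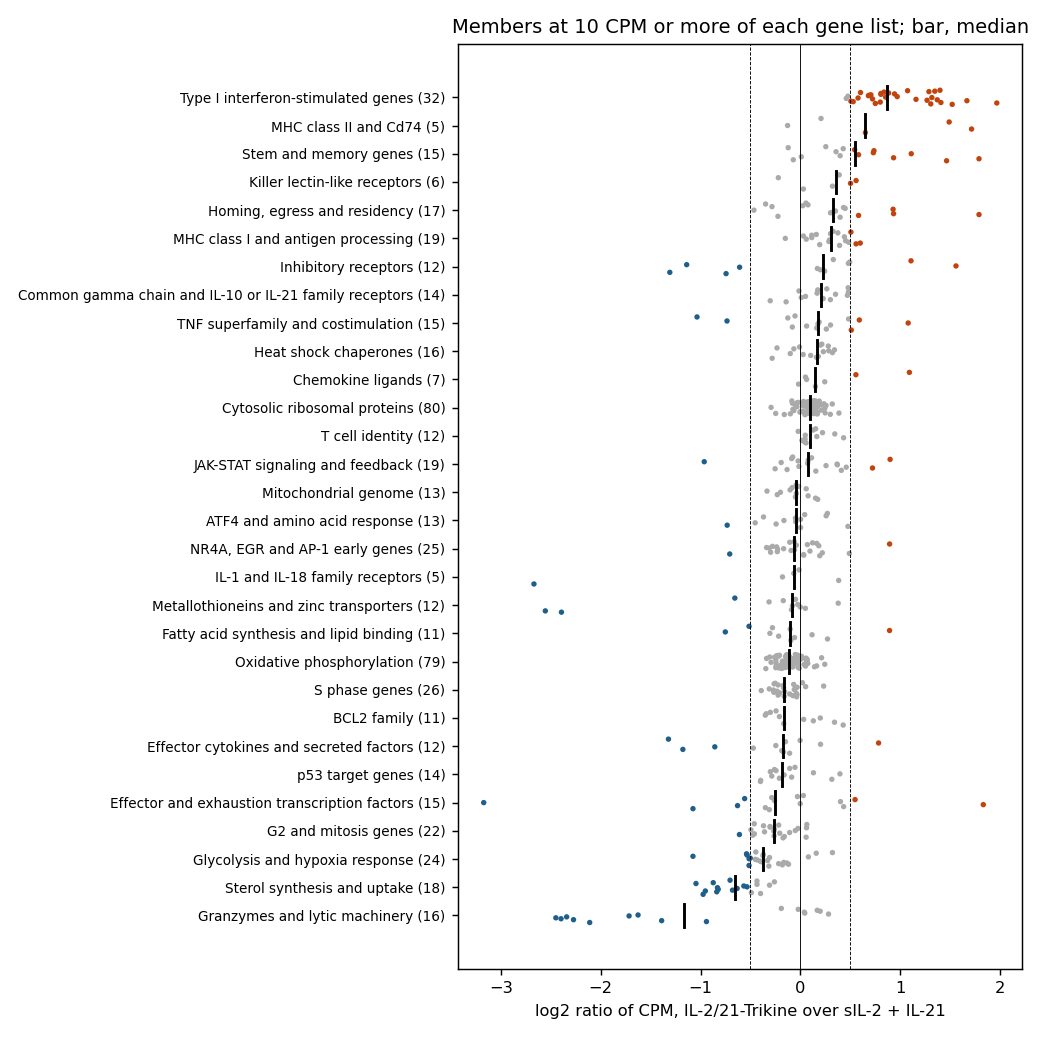
Log2 ratio of CPM, IL-2/21-Trikine over sIL-2 + IL-21, for each member at 10 CPM or more of 30 gene lists (number of members in brackets), with the list's median as a bar and dashed lines at 0.5 and -0.5. The interferon list lies to the right of 0 as a whole and the sterol list to the left. The granzyme list is split between lower granzymes with perforin and members that did not pass 0.5.

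In absolute terms the largest differences were in abundant genes. The 10 genes with the largest negative difference in CPM were Tmsb4x, Gzma, Gzmc, Gzmb, Actg1, S100a6, Ifitm1, Gzmf, Lgals1 and Mt1. The difference was -3629 CPM for Gzma, -2891 CPM for Gzmc and -2543 CPM for Gzmb. The actin-binding Tmsb4x was at 19801 and 23804 CPM, the actin gene Actg1 at 3784 and 5232 CPM, and the lectin Lgals1 at 1539 and 2518 CPM. Ifitm1, although of an interferon-induced family, was lower at 1341, 2637 and 1986 CPM, a log2 ratio of -0.98. The 10 with the largest positive difference were Tpt1, Xcl1, Rps24, Malat1, Rpl23, B2m, Rpl34, Rpl13, Rps7 and Rps16. Tpt1, a translation-linked gene, was at 10063 and 8330 CPM, and Malat1, an RNA kept in the nucleus, at 3517 and 2407 CPM with 4300 CPM in sIL-2. Of these, only Xcl1 and Malat1 passed a log2 ratio of 0.5.

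Longer genes were somewhat more often higher. Gene spans from the GRCm38 annotation covered 99.6% of the compared genes. Among 929 genes over 100 kb, 6.89% were higher and 3.98% lower with a median of 0.14, and among 1728 genes under 10 kb, 3.24% were higher and 4.75% lower with a median of -0.06. The counts include intronic reads. The median of the longest genes was 0.13 in cells of at least 2000 UMIs and near 0 in cells of 5000 to 15000. Among the leading higher genes, Aff3 (74.2 and 32.7 CPM), a transcription regulator, and the surface genes Ms4a4c (375 and 165 CPM) and Ly6c2 (540 and 281 CPM) belonged to none of the lists. Their log2 ratios were 1.18, 1.18 and 0.95, and those of Aff3 and Ms4a4c were 0.43 and 0.64 in cells of 5000 to 15000 UMIs. The part of gene length, nuclear RNA and depth in these ratios was not tested.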

How the data were processed

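Single-cell 3' RNA libraries of sorted tumor T cells were used, 1 each for IL-2/21-Trikine, sIL-2 + IL-21 and sIL-2. The matrices that the authors deposited hold UMI counts, unnormalized, from Cell Ranger 9.0.0, which counted intronic reads too. The methods name a GRCm39 reference and the labels mm10. Counts of cells with 500 to 120000 UMIs and up to 20% mitochondrial UMIs were summed per library and scaled to CPM (totals of 166772854, 168041089 and 130200802). Ratios carry exact binomial 95% intervals from scipy 1.17.1, which cover counting error only. Shares of cells were taken after thinning to 2000 UMIs with seed 1. TMM factors came from edgeR 4.0.16. Other scalings, filters and choices of cells were tried. No test, clustering or doublet removal was run. The ratio code was tested on simulated data.

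Named genes were the 15 highest and 15 lowest log2 ratios at 50 CPM or more, the 10 largest gains and losses in CPM, up to 4 members of each list past 0.5, the receptors, STAT3, STAT5 and their feedback genes, and list members at 50 CPM or more within 0.1 of 0 as examples. Receptor and immunoglobulin segments, mitochondrial genes and numbered gene models were left out, which removed 1 higher gene and 1 gain. List members named beyond this were chosen after their values were seen. Members and lists were chosen with earlier results of these data known. Promoters came from RefSeq (GRCm38.p6). Results for some genes are not reported here.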

Additional observations from a re-analysis of the deposited data

How the results depend on the processing

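Every value rests on 1 library a side, so none of these settings speaks to variation between mice. No paired analysis was possible because each treatment had 1 library and the result comes from no test, and for the same reason no library could be left out. TMM and median-of-ratios scaling shifted every log2 ratio by the same -0.00025 and -0.0029, so no gene past 0.5 could change direction under them. The 87 named genes past 0.5 all kept their direction under equal weight for each cell and under both stricter cell filters. They all also did so under removal of cells with other markers and thinning to 2000 UMIs. In cells with 0 cycle UMIs, 84 did, and Klf2 (-0.026), Xcl1 (-0.037), Fabp5 (0.088) and the median of the killer lectin-like receptors (-0.022) reversed. List medians closer to 0 also changed sign there: S phase (0.05), inhibitory receptors (-0.010), T cell identity (-0.022), chemokine ligands (-0.037) and ATF4 (0.157). The chemokine median was also below 0 after thinning (-0.053) and with equal weight (-0.132), as the mitochondrial genome median (0.017) was above 0 with equal weight. The number still past 0.5 was 87 with TMM, 82 without cells of other markers, 74 with equal weight, 71 after thinning and 66 in cells with 0 cycle UMIs. The count of genes higher past 1 was 29 after thinning and 25 in cells with 0 cycle UMIs, against 53, and of genes lower past 1 it was 72 and 90, against 74. With a minimum of 50 CPM, 95 genes were higher and 83 lower past 0.5, and 12 and 22 past 1. With a minimum of 1 CPM, the genes higher past 0.5 were 572 and the genes lower past 0.5 were 722, and past 1 they were 139 and 261. With a minimum of 10 CPM in the mean of the 3 libraries, the median was 0.43 for stem and memory genes (13 members) and 0.21 for class II genes (3 members). It was -0.60 for sterol genes (16 members) and -0.14 for effector and exhaustion transcription factors (14 members). The interferon and granzyme medians stayed at 0.87 and -1.17. The filter itself sets how many genes are compared. For the other settings the cause was not tested.

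Views by depth and of cells with at least 3 cycle UMIs were chosen after seeing the data. In cells of 5000 to 15000 UMIs, 114 genes were higher and 290 lower past 0.5, and 13 and 68 past 1, 60 of the 87 named genes stayed past 0.5, and Fabp5 (0.0026) and the killer lectin-like median (-0.063) reversed. So did the medians, nearer 0, of S phase (0.076), chemokine ligands (-0.300), ATF4 (0.089), JAK-STAT (-0.008) and T cell identity (-0.013). In cells over 15000 UMIs, the median of the G2 and mitosis genes was 0.026 and that of S phase 0.022. With at least 3 cycle UMIs, the S phase median was 0.002, in cells picked by these same genes.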
